A study of Mus musculus with 84 samples.

Results

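The thermogenic programme of fat was followed through 10 genes: Ucp1, Ppargc1a, Prdm16, Cidea, Dio2, Elovl3, Cox8b, Cox7a1, Zic1 and Cpt1b. They were chosen by name, as genes that brown and beige fat use to make heat or that are used to tell these fats from white fat, and they are 10 of 21851 protein-coding genes. For each, peaks of 4 histone marks were read at the promoter (2000 bp either side of each protein-coding start site), across the gene body and in 50 kb on either side of the gene, in 84 libraries of adipocyte nuclei.

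The nuclei came from epididymal fat, a white visceral depot, of AdipoERCre x NuTRAP mice. In these animals tamoxifen switches on a Cre recombinase driven by the adiponectin promoter, which tags adipocyte nuclei with biotin so that they can be pulled out of the tissue. Control animals carry the same alleles and received tamoxifen too. Group C was on a low-fat chow until 18 weeks of age, and H received high-fat diet (HFD) for 12 weeks to the same age. HC received HFD for 12 weeks and then chow for 8 weeks, to 26 weeks of age, with CC_s as the chow group of that age. HH received HFD for 25 weeks, to 31 weeks of age, with CC_l as its chow group, and HHC added 8 weeks of chow, to 39 weeks of age, with CCC as its chow group. According to the study, CC_l was also on the low-fat chow, and HC, CC_s, HHC and CCC were switched to a standard chow. CC_s and CCC thus differ from C and CC_l both in age and in chow. H and HH are called obese below, HC and HHC weight loss (WL), and the 2 durations the 12-week and the 25-week cohort. H3K4me3 was profiled in 21 libraries, H3K27ac in 21, H3K4me1 in 22 and H3K27me3 in 20, with 3 libraries in 20 of the groups of a mark and 2 in the other 12.

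In brown and beige fat, cold and adrenergic signals raise cAMP, fatty acids are released and burned in mitochondria, and UCP1 lets protons leak back across the inner membrane so that the energy leaves as heat. White adipocytes store fat, have few mitochondria and keep Ucp1 largely silent, although some can take up this programme when stimulated. H3K4me3 marks start sites that are active or ready for use, H3K27ac active promoters and enhancers, H3K4me1 enhancers that are active or poised, and H3K27me3 is laid down by the polycomb complexes over silenced genes, many of them developmental regulators.

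Libraries differed widely before any gene was considered, and every value below is read against that. They held 11249 to 46397 peaks covering 8.54 to 133 Mb of the genome, and 6.09% to 66.0% of all genes had a promoter peak. H3K27me3 peaks covered 16.9 to 19.97 Mb in H against 43.03 to 64.1 Mb in C, and 8.54 to 36.3 Mb in HC against 43.2 to 60.5 Mb in CC_s. H3K27ac peaks covered 9.60 to 24.4 Mb in H against 42.8 to 49.0 Mb in C, and H3K4me3 peaks 11.04 to 30.2 Mb in H against 41.03 to 53.4 Mb in C. A promoter without a peak is one that did not reach the peak list of that library, which does not show that the mark was absent. In 4 H3K4me3 libraries of the 25-week cohort (both of HH, 1 of CC_l and 1 of CCC) the treatment field names a diet group other than the title does. Groups were taken from titles, and 25-week results for that mark are also given by the treatment field where it changed them. All 10 adipocyte marker genes (such as Adipoq and Plin1) had an H3K4me3 peak in every C, CC_s, CC_l, CCC and HH library, and 70% to 100% of them did in the others.

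The 10 genes lie on 10 different stretches of 9 chromosomes of build GRCm38. The regulators are Ppargc1a (ENSMUSG00000029167.13, chr5:51454250-51567726, minus strand), the coactivator of mitochondrial biogenesis, Prdm16 (ENSMUSG00000039410.16, chr4:154316125-154636873, minus strand), a transcription factor that directs precursors to brown fat, and Zic1 (ENSMUSG00000032368.14, chr9:91358058-91365810, minus strand), a developmental transcription factor used as a marker of classical brown fat. Heat and hormone effectors are Ucp1 (ENSMUSG00000031710.4, chr8:83290352-83298452, plus strand) and Dio2 (ENSMUSG00000007682.6, chr12:90724552-90738438, minus strand), the deiodinase that activates thyroid hormone within the cell. Lipid genes are Cidea (ENSMUSG00000024526.9, chr18:67343604-67367785, plus strand), a lipid droplet protein, Elovl3 (ENSMUSG00000038754.5, chr19:46131897-46135694, plus strand), a fatty acid elongase, and Cpt1b (ENSMUSG00000078937.8, chr15:89416405-89425863, minus strand), the muscle and brown fat form of the enzyme that admits fatty acids to mitochondria. Cox8b (ENSMUSG00000025488.9, chr7:140898945-140900446, minus strand) and Cox7a1 (ENSMUSG00000074218.3, chr7:30184144-30186078, plus strand) encode respiratory chain subunits of heart, muscle and brown fat. The promoter window of Zic1 overlaps that of Zic4, whose nearest start lies 3160 bp away, and that of Cpt1b overlaps the window of C730034F03Rik, 3726 bp away, so peaks there cannot be assigned to a single gene. For Ppargc1a the annotated end of the gene lies 13804 bp from its nearest coding start, and no library of any mark had a peak there, so its promoter values come from the coding starts.

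The genes fell into different promoter states in these white adipocytes. Ucp1 had an H3K27me3 peak in 17 of 20 libraries, an H3K4me3 peak in 1 of 21, and none of H3K27ac or H3K4me1 in any library. Zic1 had H3K27me3 in 20 of 20 libraries, H3K4me3 in 5 and no H3K27ac. Prdm16 and Elovl3 carried H3K27me3 in 19 and 18 libraries together with H3K4me3 in 14 and 12, with H3K27ac in 2 libraries for Prdm16 and in none for Elovl3. Ppargc1a was at the other end, with H3K4me3 in 21 of 21 libraries, H3K27ac in 20, H3K4me1 in 16 of 22 and H3K27me3 in 2.

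Between these lay genes with few polycomb peaks, and Cidea, which had more. Cox7a1 had H3K4me3 in 19 libraries, H3K27ac in 14, H3K4me1 in 4 and no H3K27me3. Cox8b had H3K4me3 in 13, H3K27ac in 15, H3K4me1 in 20 and no H3K27me3, and Cpt1b had 8, 9, 14 and 0. Dio2 had H3K4me3 in 16, H3K27ac in 6, H3K4me1 in 9 and H3K27me3 in 2. Cidea was the gene in which all 4 marks were frequent, with H3K4me3 in 16, H3K27ac in 8, H3K4me1 in 12 and H3K27me3 in 11 libraries.

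**Figure D1:**
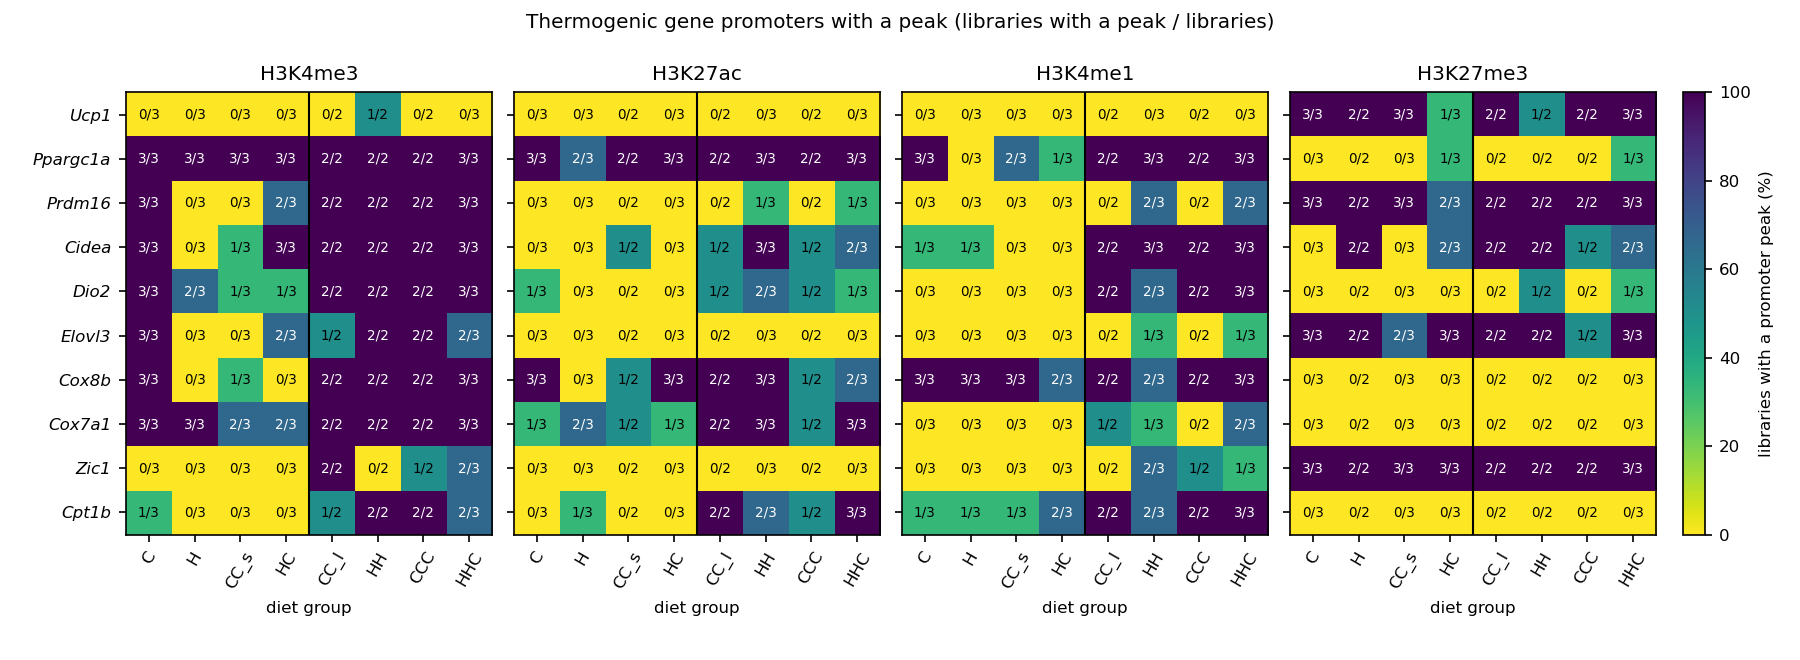
Share of libraries with a promoter peak (colour, in percent; numbers give libraries with a peak over libraries) for each thermogenic gene (rows) and diet group (columns), with a panel for each mark; the black line parts the 12-week from the 25-week cohort. Ppargc1a is marked by H3K4me3 in all 21 libraries and Zic1 by H3K27me3 in all 20, and the H column of H3K4me3 is empty for Prdm16, Cidea, Elovl3 and Cox8b.

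Promoter sequences are shown for 4 genes because they span these states, from Zic1 and Prdm16, where CpG dinucleotides are dense, to Ucp1 and Cox8b, where they are sparser. Each runs 5′ to 3′ from 250 bases before to 50 bases after the RefSeq start site (build GRCm38.p6), with every CG dinucleotide in capitals: Zic1 at chr9:91365719-91366018 (minus strand), Prdm16 at chr4:154636824-154637123 (minus strand), Ucp1 at chr8:83290098-83290397 (plus strand) and Cox8b at chr7:140900397-140900696 (minus strand).
Zic1: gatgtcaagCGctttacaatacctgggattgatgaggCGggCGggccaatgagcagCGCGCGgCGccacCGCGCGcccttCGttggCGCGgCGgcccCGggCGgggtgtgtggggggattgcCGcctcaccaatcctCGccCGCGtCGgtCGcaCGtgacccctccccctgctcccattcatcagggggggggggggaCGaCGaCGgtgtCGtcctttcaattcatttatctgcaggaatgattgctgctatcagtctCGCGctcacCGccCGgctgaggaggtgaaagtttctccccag
Prdm16: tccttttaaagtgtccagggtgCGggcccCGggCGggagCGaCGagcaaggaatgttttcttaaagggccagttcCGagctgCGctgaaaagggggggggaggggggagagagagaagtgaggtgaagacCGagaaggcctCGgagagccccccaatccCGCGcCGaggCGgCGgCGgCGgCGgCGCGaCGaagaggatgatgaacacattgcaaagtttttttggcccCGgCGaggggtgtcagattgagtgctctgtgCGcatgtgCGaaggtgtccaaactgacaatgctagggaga
Ucp1: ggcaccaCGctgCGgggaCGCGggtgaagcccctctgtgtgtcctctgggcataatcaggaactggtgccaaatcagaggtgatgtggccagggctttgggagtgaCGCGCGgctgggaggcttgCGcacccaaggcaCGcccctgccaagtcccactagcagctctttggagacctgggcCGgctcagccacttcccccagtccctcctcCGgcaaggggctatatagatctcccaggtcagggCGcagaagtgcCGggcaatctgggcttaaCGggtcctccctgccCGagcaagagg
Cox8b: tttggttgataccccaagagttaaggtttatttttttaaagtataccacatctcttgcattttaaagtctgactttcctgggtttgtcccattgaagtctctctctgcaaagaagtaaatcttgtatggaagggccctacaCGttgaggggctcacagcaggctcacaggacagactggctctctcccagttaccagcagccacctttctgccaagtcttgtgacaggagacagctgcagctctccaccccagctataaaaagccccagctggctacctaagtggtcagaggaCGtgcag

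The Zic1 promoter holds 31 CG dinucleotides and the Prdm16 promoter 24, which is 0.97 and 0.94 times the number that base composition alone would give. Ucp1 holds 15 (ratio 0.48) and Cox8b 2 (ratio 0.11), and the ratios of Cox7a1 and Dio2 were 0.33 and 0.20. Among all genes matched to RefSeq, 89.9% of the promoters with a ratio of at least 0.6 and 31.4% of those under 0.6 had H3K4me3 in at least 50% of libraries, while H3K27me3 was as frequent in 14.7% and 17.7%. Zic1 and Prdm16 were thus CpG-rich promoters under H3K27me3, and Ucp1 carried that mark from the lower class. RefSeq held 7 of the 10 genes, of which 6 lay within 1000 bp of an annotated start and were read, since the entry of Ppargc1a lies 13803 bp away.

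Letter patterns of common promoter elements were searched on both strands of the 6 promoters and of 32851 RefSeq promoters of the same length. The cAMP response element TGACGTCA was in the Dio2 promoter, 95 bases before its start, and in 1.79% of all promoters, and its part TGACG was in Dio2 and in Ucp1 (147 bases before the start) and in 20.8% of all. AGGTCA, the core of nuclear receptor sites, was in Ucp1 and in 16.3% of all. TATAAA was in Dio2 and Cox8b (13.6% of all), CCAAT in Prdm16, Cox7a1 and Zic1 (37.4%), GGGCGG in Prdm16 and Zic1 (35.7%) and CANNTG in Prdm16, Cox8b, Cox7a1 and Zic1 (72.3%). These are matches of letters and describe no bound site.

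A relative of each gene from the same family was read for comparison. Relatives used by white fat or by most cells had frequent H3K4me3, which was at Ucp2 in 20 libraries, Ppargc1b in 21, Cidec in 20, Elovl6 in 21, Cox8a in 21, Cox7a2 in 21 and Cpt1a in 21. H3K27ac was at Ppargc1b in 18 of 21 libraries against 20 for Ppargc1a, at Ucp2 in 16 against 0 for Ucp1, at Elovl6 in 16 against 0 for Elovl3, at Cidec in 20 against 8 for Cidea, at Cox8a in 20 against 15 for Cox8b, at Cox7a2 in 21 against 14 for Cox7a1, and at Cpt1a in 20 against 9 for Cpt1b. H3K4me1 was less frequent in some relatives, with 10 of 22 libraries at Ppargc1b against 16 at Ppargc1a, 14 at Cox8a against 20 at Cox8b and 9 at Cpt1a against 14 at Cpt1b. Mecom, the relative of Prdm16, and Zic4, that of Zic1, had H3K27me3 in 20 of 20 libraries, against 19 for Prdm16 and 20 for Zic1, and H3K4me3 in 16 and 1. Dio1 had H3K4me3 in 0 libraries and H3K27me3 in 10.

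Counted over the whole set, the median number of libraries with a peak was 13.5 for the 10 genes against 20.5 for the relatives and 17 for all genes with H3K4me3, and 7 against 17 and 6 with H3K27ac. With H3K4me1 it was 6.5 against 9 and 3, and with H3K27me3 6.5 against 1.5 and 0. A peak of H3K27me3 in at least 50% of libraries was found for 5 of the 10 genes and 16.5% of all genes, of H3K4me3 for 7 and 58.4%, of H3K27ac for 3 and 42.7%, and of H3K4me1 for 4 and 20.2%. These are descriptions of a list chosen by name and were not tested.

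H3K4me3 and H3K27me3 were found at the same promoter in libraries of the same group and number, of which there were 20 pairs. Prdm16 had both in 14 pairs, with shared base pairs in 12, Elovl3 in 11 (shared in 7), Cidea in 9 (shared in 9) and Zic1 in 5 (shared in 5). Dio2 and Ppargc1a had both in 2 pairs each. In Ucp1, Cox8b, Cox7a1 and Cpt1b no pair had both. Whether both marks lie on the same nuclei or on different nuclei of a sample cannot be told apart in bulk libraries.

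Peaks around the start sites were then read beyond the promoters. Distal regions were merged from peaks of all libraries of a mark that touch no promoter window of a protein-coding gene. A peak that runs out of a promoter therefore forms no distal region. A library was then counted for a region where any of its peaks overlapped it, including a peak that runs out of a promoter. Around Zic1, H3K27me3 was called over regions centred 9128 bp downstream, across the gene, and 21287 and 36615 bp upstream in 20 of 20 libraries each. Across Prdm16 and its flanks, 28 separate H3K27me3 regions away from the promoter were found in at least 50% of libraries, together with 5 H3K4me1 regions, of which a region 137929 bp into the gene (chr4:154496372-154501501) had a peak in 21 of 22 libraries and another 25342 bp upstream in 18. At Ucp1 H3K27me3 reached the promoter window in 17 libraries and the gene body in 15 of 20, with a widest promoter peak of 473 to 8107 bp. No distal region had this mark in at least 50% of libraries, which does not show where the promoter peaks end. The most frequent distal active peaks were H3K4me1 12698 bp upstream in 10 of 22 libraries and H3K27ac 19576 bp downstream in 9 of 21.

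Distal active regions stood out at Cidea and Ppargc1a. A region centred 14078 bp upstream of Cidea (chr18:67321527-67337524), reaching into Impa2, had an H3K27ac peak in some part in 21 of 21 libraries. It is 15998 bp wide, and the promoter window, with H3K27ac in 8 libraries, 4001 bp, so these counts are of unlike widths. Further H3K27ac regions lay 33331 bp upstream, in 18 libraries, and 26652 bp downstream, in 15. Ppargc1a had an upstream region 41927 bp from the start (chr5:51594769-51596928) with H3K27ac in 15 libraries and H3K4me1 in 17 of 22, and a region 3290 bp inside the gene with H3K27ac in 12 libraries, 3 of 3 in C and 0 of 3 in H. Cox8b had H3K27ac over a region of 260 bp, 2948 bp upstream, in 13 libraries and an H3K27me3 region over Nlrp6, 24167 bp upstream, in 19 of 20. The H3K27ac counts at this Cox8b region and 3290 bp inside Ppargc1a can include peaks that run out of the promoter. Cox7a1 had H3K4me1 18351 bp downstream in 18 of 22, and Cpt1b had H3K27me3 over Mapk8ip2, 34840 bp upstream, in 19 of 20. The H3K4me3 region 4617 bp downstream of the Elovl3 start, in 17 libraries, reached Pitx3. Dio2 had no distal region in more than 2 libraries of any mark.

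**Figure D2:**
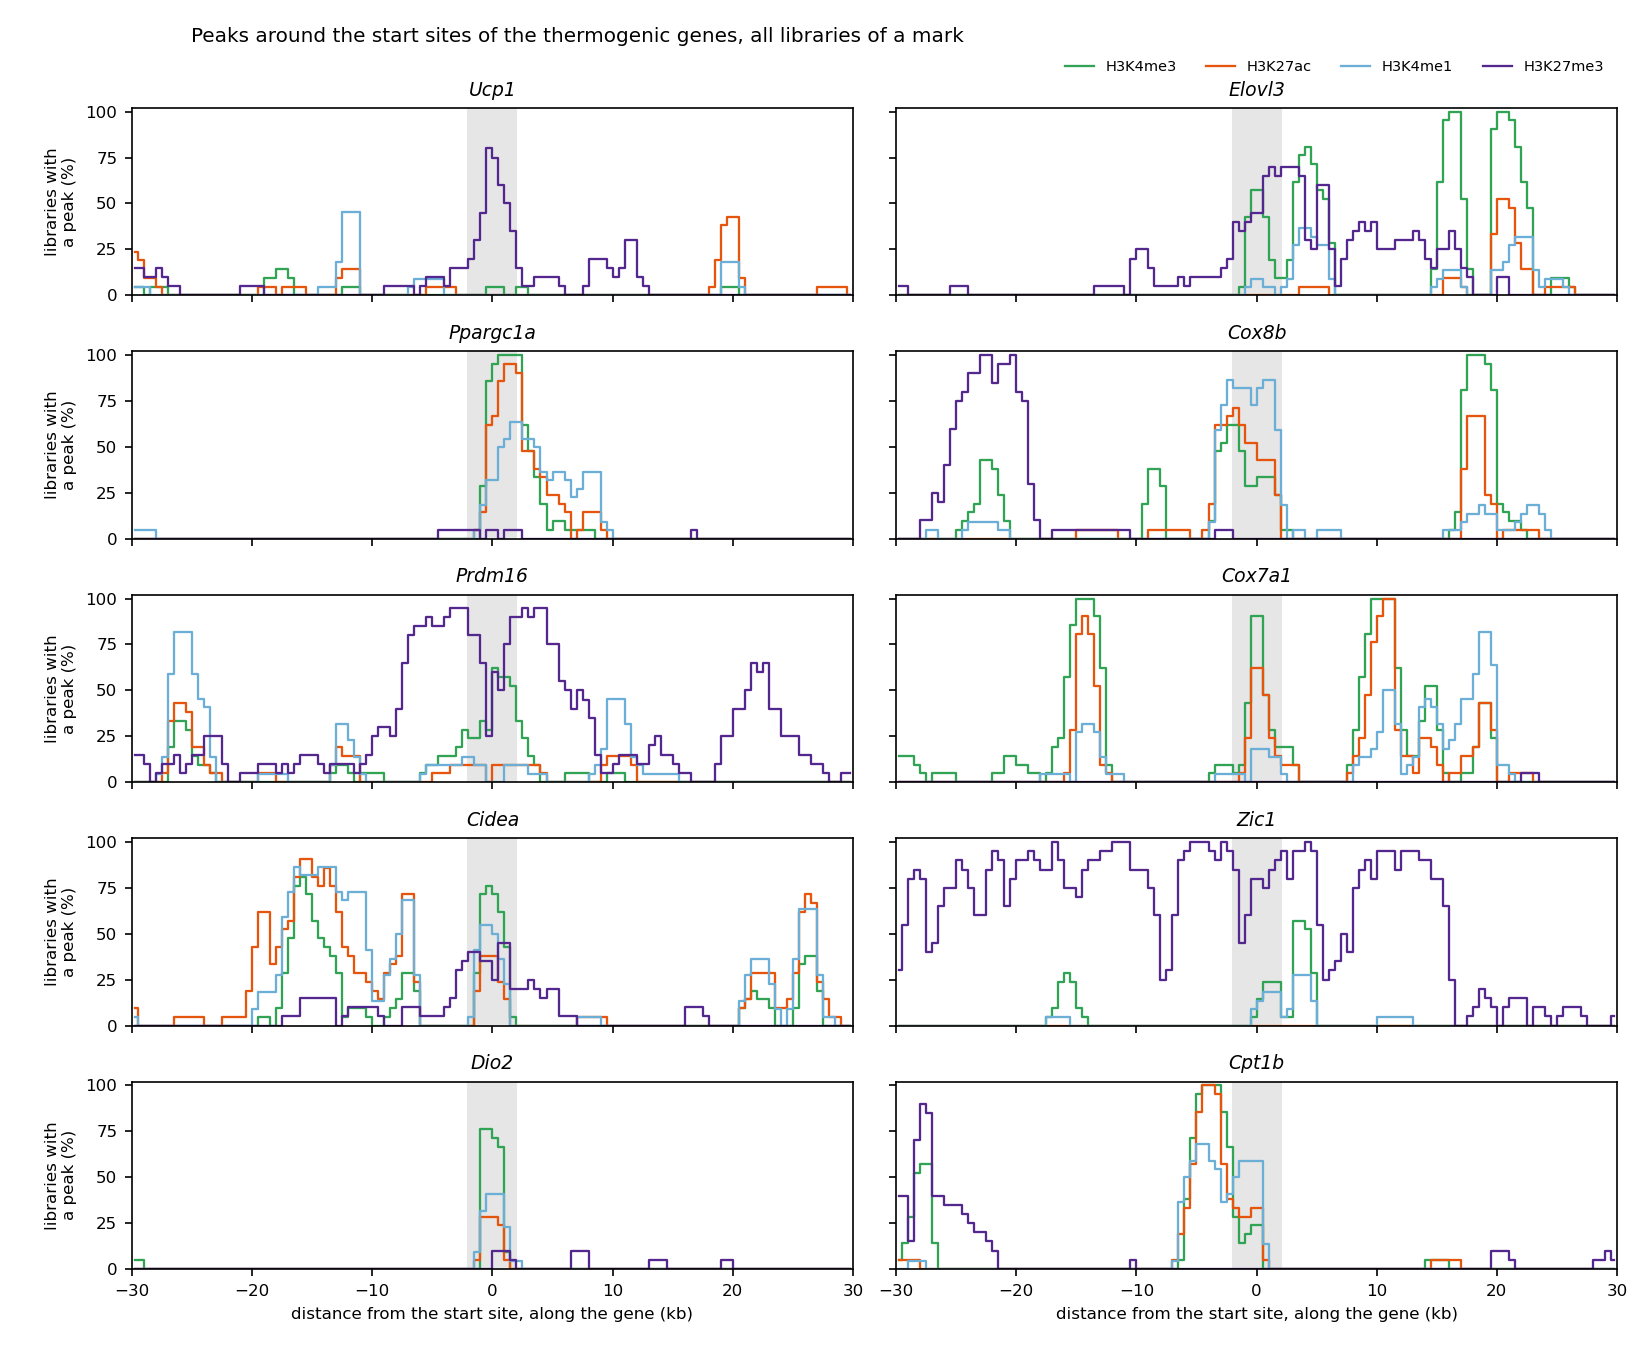
Share of libraries (percent, all diet groups) with a peak in steps along 30 kb either side of the start of each gene, with distance in kb along the direction of the gene on the horizontal axis and the promoter window shaded; lines are the 4 marks. Zic1 sits within broad H3K27me3, and Prdm16 has H3K27me3 on both sides of a start with H3K4me3. Upstream of Cidea, 21 of 21 libraries had an H3K27ac peak in some part of a merged region of 15998 bp, a count over the whole region and not by step.

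Obesity was examined first at the level of peak presence. A promoter was called lost where every control library and no library of the diet group had a peak, and gained in the reverse case. In H against C, 7 such calls fell on the 10 genes. H3K4me3 was lost at Prdm16, Cidea, Elovl3 and Cox8b, 4 of 10 where 1.71% of all genes were called. H3K27ac was lost at Cox8b (2.08% of all genes), H3K4me1 at Ppargc1a (0.911%), and H3K27me3 was gained at Cidea (2.9%).

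The values behind these calls were as follows. H3K4me3 peaks covered 18.6%, 40.7% and 36.8% of the Prdm16 promoter window in C and 0% in all 3 H libraries. For Cidea, a droplet protein gene of brown fat that white fat can also express, the H3K4me3 coverage was 47.04%, 47.9% and 49.2% in C and 0% in H. For Elovl3 it was 17.1%, 35.4% and 25.6% in C, and for Cox8b 12.6%, 23.6% and 21.2%, both with 0% in the H libraries. H was low at all 4 genes without overlap, while H3K4me3 at Ppargc1a (58.7%, 55.3% and 43.9% in H against 61.1%, 62.2% and 61.1% in C) and at Cox7a1 (17.6%, 18.9% and 15.1% against 32.3%, 35.03% and 20.6%) was kept in all 3 H libraries at lower coverage.

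The H3K4me3 calls depended on which peaks were counted. When each H3K4me3 library was cut to its 11249 strongest peaks, the number in the smallest, none of the 4 remained, and with the weakest 25% of peaks dropped from each library only the call at Cidea did. CC_s, an older group on another chow, had also lost Prdm16 and Elovl3 against C (1.73% of all genes called). Both had 0% in 3 of 3 CC_s libraries, whose H3K4me3 peaks covered 16.4 to 38.1 Mb. The part of library size in these calls was not tested. The calls at Cox8b for H3K27ac, at Ppargc1a for H3K4me1 and at Cidea for H3K27me3 remained under both changes. With narrower windows they did not: the Cox8b call was absent at 500 and 1000 bp, the Ppargc1a call at both and also with only the 5′ end of the gene or at least 200 bp of coverage, and the Cidea call at 500 bp.

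At longer exposure the pattern was not repeated. In HH against CC_l the only call was a loss of H3K4me3 at Zic1 (1.8% of all genes), with 22.2% and 43.7% in CC_l and 0% in both HH libraries, and it did not hold with groups taken from the treatment field. No member was called for H3K27ac (0.851%), H3K4me1 (2.7%) or H3K27me3 (1.99%). In HH, Prdm16 had H3K4me3 over 100% and 91.6% of its window against 18.0% and 40.8% in CC_l, the opposite direction to H against C. With groups from the treatment field the HH and CC_l means were 57.4% and 54.8%, and the groups overlapped.

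After WL no promoter of the 10 genes met the call in either cohort. In HC against CC_s the share of all genes called was 0.339% for H3K4me3, 0.796% for H3K27ac, 0.316% for H3K4me1 and 0.993% for H3K27me3, and in HHC against CCC it was 1.76%, 2.38%, 4.47% and 2.1% in the same order. Age and chow both differ between the earlier and the later chow groups. CC_s against C gave no call on the 10 genes for H3K27ac (0.902% of all genes), H3K4me1 (0.11%) or H3K27me3 (0.343%). CCC against CC_l gave none for H3K4me3 (0.751%), H3K27ac (0.879%), H3K4me1 (2.88%) or H3K27me3 (1.48%).

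**Figure D3:**
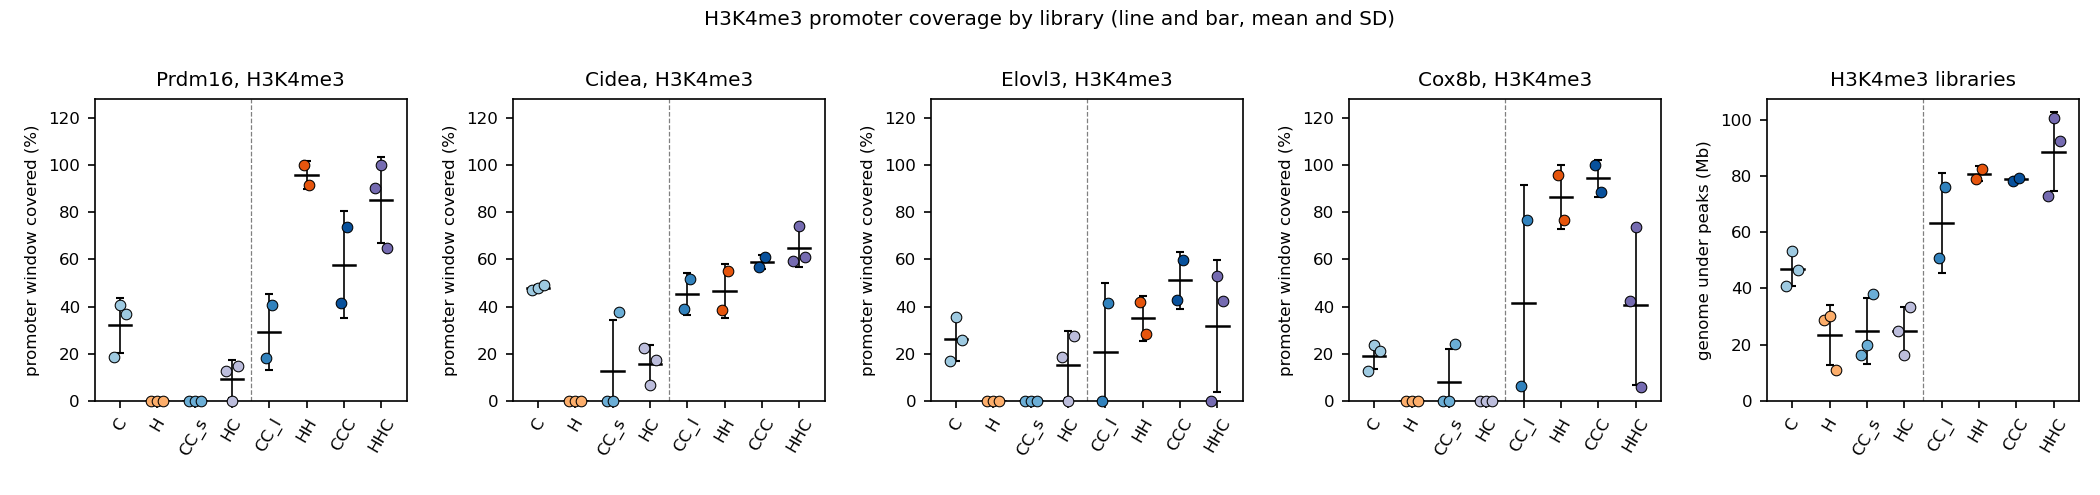
H3K4me3 by library: percent of the promoter window of Prdm16, Cidea, Elovl3 and Cox8b covered by peaks, and genome covered by the peaks of each library in Mb (right panel), in each diet group, with 1 point a library, a line at the group mean and bars of 1 SD. H sits at 0% in all 4 promoters while C lies between 12.6% and 49.2%, and the dashed line parts the 12-week from the 25-week cohort.

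Coverage was then tested over both cohorts together, with the difference between diet and control averaged over the 12-week and the 25-week cohort and labels permuted within each (exact two-sided permutation test, Benjamini-Hochberg adjustment over all 21851 genes of a mark). No gene, member or other, reached an adjusted p under 0.05 in any region, mark or comparison, and the lowest adjusted p of a member was 0.127. The designs allow no p below 0.0167 for H3K4me3 and H3K27me3 in the obese comparison, 0.01 for H3K27ac in WL and 0.005 elsewhere. The results below have an unadjusted p under 0.05, with the share of all genes that also do given beside each count.

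At promoters in obesity, 2 of 10 genes were under that threshold for H3K27ac (9.55% of all genes), 1 for H3K27me3 (2.65%), and 0 for H3K4me3 (2.55%) and H3K4me1 (2.08%). Ppargc1a had H3K27ac over 61.0%, 61.1% and 60.5% of its window in C and 34.4%, 0% and 25.2% in H. In CC_l it was 63.2% and 74.0%, and in HH 62.7%, 60.3% and 56.2%. All obese libraries were below all controls of their cohort, with a mean difference of -24.9 percentage points (exact permutation p = 0.005, adjusted p = 0.379), and relative to the covered Mb of each library the difference was -1.998 (exact permutation p = 0.845).

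Cox8b, the respiratory chain subunit, had H3K27ac over 83.03%, 62.5% and 14.8% of its window in C and 0% in all 3 H libraries. CC_l had 96.8% and 89.8%, and HH 39.99%, 84.8% and 92.6%, which overlap. The mean difference was -37.1 percentage points (exact permutation p = 0.025, adjusted p = 0.416), and relative to covered Mb it was -38.6 (exact permutation p = 0.025). It was -37.1 without any single H library (exact permutation p = 0.06 each) and -35.4 and -38.9 without either CC_l library (exact permutation p = 0.075 and 0.0625). H3K4me1 over the same window was 100%, 80.7% and 61.1% in C and 84.1%, 27.5% and 83.3% in H, so that this mark stayed in every H library where H3K27ac was not called.

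**Figure D4:**
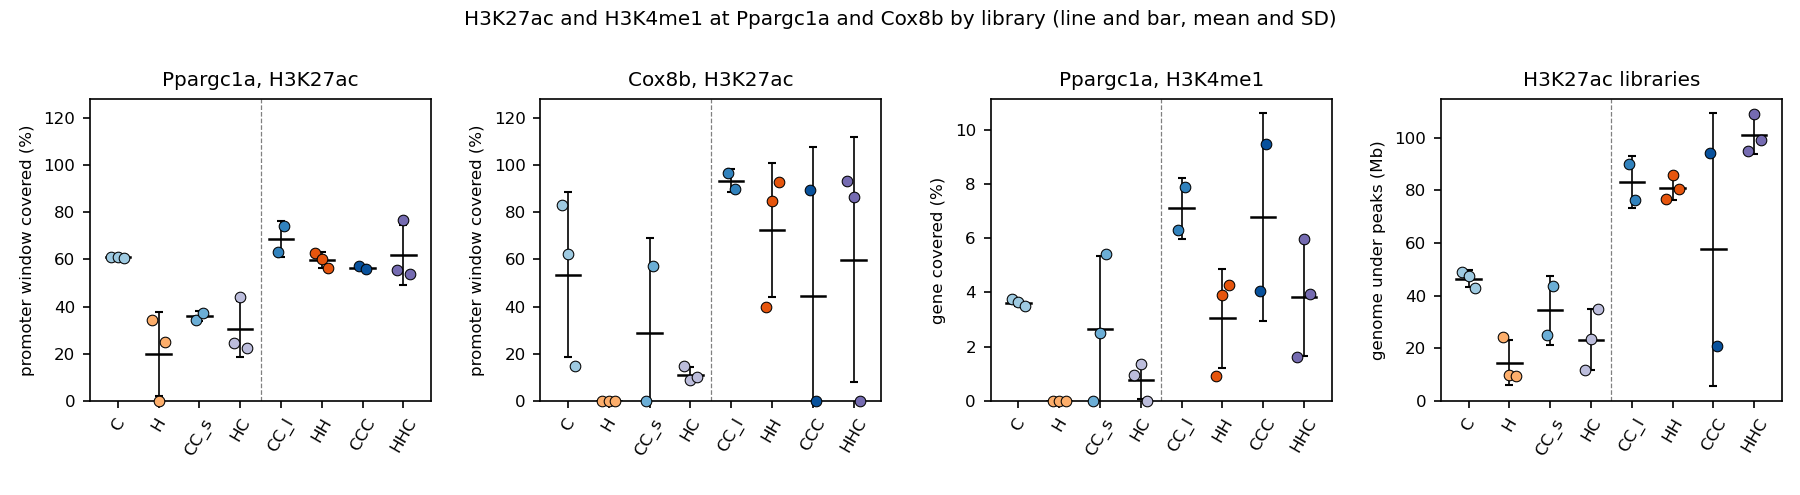
Percent of the Ppargc1a and Cox8b promoter windows covered by H3K27ac peaks, percent of the Ppargc1a gene covered by H3K4me1 peaks, and genome covered by H3K27ac peaks in Mb, in each diet group, with 1 point a library, a line at the group mean and bars of 1 SD. For Ppargc1a the H libraries lie between 0% and 34.4% and the C libraries between 60.5% and 61.1%.

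H3K27me3 over the Zic1 promoter was 74.0%, 80.2% and 100% in C and 19.1% and 35.7% in H, and 100% and 74.2% in CC_l against 82.5% and 65.7% in HH, where the groups overlap. The mean difference was -35.2 percentage points (exact permutation p = 0.0333, adjusted p = 1), and -4.03 relative to covered Mb (exact permutation p = 0.7). Leaving out any C or H library, CC_l replicate 1 or HH replicate 3 put it between -39.3 and -28.7, with an exact permutation p from 0.0833 to 0.133. Zic1 kept a peak in every library throughout, so the difference is one of width: the widest peak was 4484 to 11474 bp in C and 977 and 1572 bp in H.

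After WL the promoter results were lower H3K27me3 at Prdm16 and Zic1. Both carried this mark in every control library, without which it could not be lower. For H3K27me3, 2 of 10 genes had an unadjusted p under 0.05 (3.87% of all genes), and for H3K4me3 (3.13%), H3K27ac (1.21%) and H3K4me1 (1.16%) there were 0. Prdm16 had H3K27me3 over 66.3%, 47.3% and 66.8% of its promoter in CC_s and 8.90%, 0% and 45.2% in HC. In the longer cohort it was 72.7% and 84.2% in CCC and 41.1%, 50.6% and 48.1% in HHC. WL libraries lay below controls in both cohorts without overlap, with a mean difference of -37.0 percentage points (exact permutation p = 0.005, adjusted p = 0.854).

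H3K27me3 peaks covered 78.0 to 82.9 Mb in HHC and 61.4 to 70.4 Mb in CCC, and 8.54 to 36.3 Mb in HC and 43.2 to 60.5 Mb in CC_s. Relative to covered Mb the mean difference of Prdm16 over both cohorts was -36.4 (exact permutation p = 0.025). Within 500 bp of the start, Prdm16 had a peak in every control library and no WL library of either cohort. Within 1000 bp this held only for HC against CC_s, and in the main window for neither cohort. The share of all genes so called within 500 bp was not counted. Zic1 had 89.4%, 84.7% and 96.2% in CC_s and 40.2%, 8.81% and 23.9% in HC, and 68.1% and 80.7% in CCC against 61.7%, 73.4% and 16.8% in HHC. Its mean difference was -44.8 percentage points (exact permutation p = 0.025, adjusted p = 0.923), and the groups overlapped in the 25-week cohort. Without CCC replicate 3 it was -41.6 (exact permutation p = 0.0625).

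The H3K4me3 of Prdm16 was measured in the same groups. It was 12.8%, 0% and 14.7% in HC against 0% in all 3 CC_s libraries, and 90.3%, 100% and 64.9% in HHC against 41.7% and 73.9% in CCC. Groups overlapped in both cohorts. H3K4me3 at markers of some other cell types, though not of all, moved with these groups. All 7 macrophage markers (such as Adgre1 and Ptprc) had an H3K4me3 peak in every HH and HHC library. In CC_l 42.9% of them did, and in CCC 28.6% to 57.1%. Adgre1, the macrophage surface marker, had none in any control library. The share of the 7 macrophage markers was 0% to 100% in H, 14.3% to 85.7% in HC, 42.9% in C and 0% to 28.6% in CC_s. All 5 endothelial markers had H3K4me3 in every HH library, 60% to 100% of them in HHC, 40% to 100% in CC_l and 20% in CCC. With groups by title, progenitor and mesothelial markers were not above the range of their controls in HH or HHC. Of the 5 progenitor markers, 80% had H3K4me3 in HH against 60% to 80% in CC_l. In HHC 60% to 80% of them did, against 80% in CCC. Of the 5 mesothelial markers, 40% had it in HH, HHC and CCC and 40% to 60% in CC_l. H3K27me3 after WL was lower at the endothelial marker Cdh5, at 4.42% in HC against 73.6% in CC_s and 56.6% in HHC against 79.9% in CCC (-46.3, exact permutation p = 0.005, adjusted p = 0.854). It was higher at the mesothelial marker Lrrn4 (45.4, exact permutation p = 0.03, adjusted p = 0.999). No macrophage or progenitor marker was under the threshold for it, where 3.87% of all genes were. The part of other nuclei in the values of Prdm16 was not tested, and fewer nuclei of a type and less mark per nucleus cannot be told apart.

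**Figure D5:**
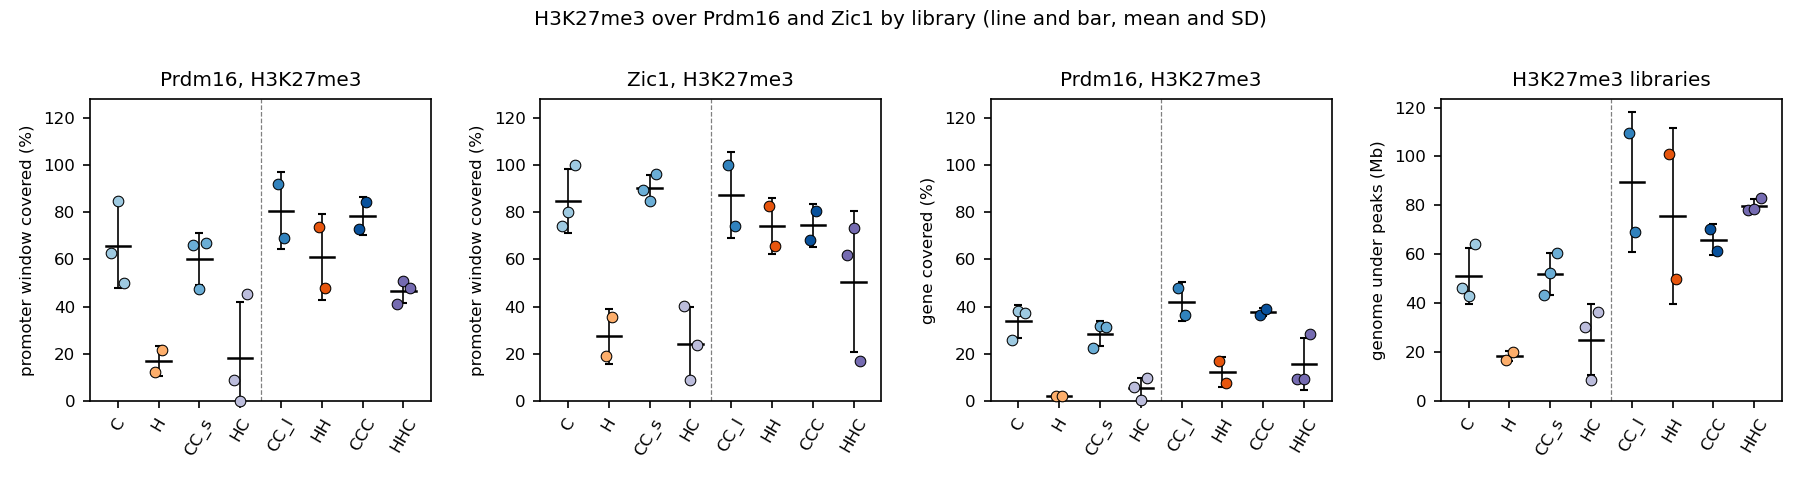
H3K27me3 over Prdm16 and Zic1 by library: percent of the promoter window (left panels) and of the Prdm16 gene covered by peaks, and the genome covered in Mb (right panel), with 1 point a library, a line at the group mean and bars of 1 SD. Prdm16 is below control in H, HC and HHC at the promoter, and over the gene in these groups and in HH. HHC libraries cover 78.0 to 82.9 Mb against 61.4 to 70.4 Mb in CCC.

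Gene bodies, which include the promoter region inside the gene, gave 4 results in obesity. They were 1 for H3K27ac (11.5% of all genes), 1 for H3K4me1 (6.48%), 2 for H3K27me3 (4.27%) and 0 for H3K4me3 (3.09%). Across Prdm16, a gene of 320749 bp, H3K27me3 covered 25.8%, 38.3% and 37.1% in C and 1.91% and 1.89% in H, and 48.01% and 36.3% in CC_l against 16.8% and 7.62% in HH. Obese libraries were lower without overlap in both cohorts, by 30.9 percentage points on average (difference -30.9, exact permutation p = 0.0167, the smallest the design allows, adjusted p = 0.656), and by a difference of -25.3 relative to covered Mb (exact permutation p = 0.0167). Without any single C library the difference was -32.9 to -29.8, with an exact permutation p of 0.0556, the smallest that fewer libraries allow.

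Ppargc1a had H3K27ac over 4.86%, 4.08% and 4.60% of its gene body in C and 1.46%, 0% and 0.894% in H, and 6.63% and 5.69% in CC_l against 3.28%, 2.43% and 2.54% in HH. The mean difference was -3.57 percentage points (exact permutation p = 0.005, adjusted p = 0.205), and -2.45 relative to covered Mb (exact permutation p = 0.01). H3K4me1 over the gene followed the same order, with 3.75%, 3.64% and 3.48% in C, 0% in 3 of 3 H libraries, 6.30% and 7.89% in CC_l and 0.927%, 3.90% and 4.29% in HH. Its mean difference was -3.84 (exact permutation p = 0.005, adjusted p = 0.463), and -4.07 relative to covered Mb (exact permutation p = 0.005). H3K4me1 libraries of H and C covered similar lengths, 31.5 to 40.9 and 29.5 to 47.6 Mb.

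H3K27me3 over the Zic1 gene was 78.2%, 64.8% and 64.6% in C, 46.7% and 42.6% in H, 100% and 68.4% in CC_l and 72.4% and 47.5% in HH. The mean difference of -24.4 (exact permutation p = 0.0333, adjusted p = 0.781) turned to 26.5 relative to covered Mb (exact permutation p = 0.15). After WL the gene body gave 1 result, for H3K27me3 (5.51% of all genes), with 0 for H3K4me3 (4.62%), H3K27ac (1.52%) and H3K4me1 (3.31%). It was Prdm16 again, with 22.4%, 31.6% and 31.4% in CC_s and 5.87%, 0.532% and 9.60% in HC. In CCC it was 36.5% and 38.8%, and in HHC 9.15%, 9.33% and 28.4%. The groups did not overlap in either cohort, and the mean difference was -22.6 percentage points (exact permutation p = 0.01, adjusted p = 0.495), or -21.4 relative to covered Mb (exact permutation p = 0.005).

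In the 50 kb flanks, obesity gave 2 results for H3K27ac (17.5% of all genes), 1 for H3K4me1 (11.5%), 2 for H3K27me3 (6.83%) and 0 for H3K4me3 (2.57%). Flank H3K27ac at Ppargc1a was 2.60%, 2.89% and 1.29% in C, 0.824%, 0% and 0% in H, 2.02% and 2.86% in CC_l and 0%, 0.871% and 1.36% in HH. Its mean difference was -1.84 percentage points (exact permutation p = 0.005, adjusted p = 0.127), and the groups did not overlap. At Cidea the H3K27ac flank coverage was 10.3%, 10.4% and 6.11% in C and 3.72%, 1.52% and 3.28% in H, but 21.7% and 17.7% in CC_l against 19.2%, 19.6% and 16.97% in HH. The difference of -3.62 (exact permutation p = 0.035, adjusted p = 0.228) was 0.53 relative to covered Mb (exact permutation p = 0.87).

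H3K4me1 around Cox8b was the only result of the obese comparison that was higher. It covered 1.26%, 1.07% and 0.790% of the flanks in C and 2.62%, 4.89% and 0.605% in H, and 4.17% and 3.26% in CC_l against 12.4%, 12.6% and 9.55% in HH. The mean difference was 4.72 (exact permutation p = 0.02, adjusted p = 0.305), and 8 other genes start within these flanks. It was 4.10 relative to covered Mb (exact permutation p = 0.04), 3.15 with equal peak numbers (exact permutation p = 0.2) and 3.34 with the stricter list (exact permutation p = 0.1), and its p stayed under 0.05 in 6 of the 11 fits that left out a library, not without any CC_l or HH library (4.46 to 5.21). For H3K27me3, the flanks of Prdm16 differed by -19.2 percentage points (exact permutation p = 0.0167, adjusted p = 0.421) without overlap in either cohort, and those of Zic1 by -18.6 (exact permutation p = 0.0333, adjusted p = 0.488), which was 4.24 relative to covered Mb (exact permutation p = 0.45).

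In WL the flanks gave 4 results for H3K27me3 (9.9% of all genes) and 0 for H3K4me3 (5.14%), H3K27ac (1.76%) and H3K4me1 (4.85%). Around Elovl3, the elongase gene, H3K27me3 covered 0% in all 3 CC_s libraries and 1.37%, 0.115% and 5.72% in HC, and 2.63% and 0% in CCC against 17.5%, 9.28% and 14.2% in HHC. WL was higher in both cohorts without overlap, by 7.37 percentage points (exact permutation p = 0.005, adjusted p = 0.282), and by 6.38 relative to covered Mb (exact permutation p = 0.005). Around Cidea it was 0%, 0.531% and 0% in CC_s and 1.14%, 0% and 2.05% in HC, and 0% in both CCC libraries against 7.25%, 4.07% and 2.26% in HHC, a difference of 2.71 (exact permutation p = 0.04, adjusted p = 0.426). With equal peak numbers it was 1.94 (exact permutation p = 0.16), and in only 2 of the 11 fits that left out a library, those without CC_s replicate 2 or HC replicate 2, was its p under 0.05 (range of the difference 2.02 to 3.27). Prdm16 differed by -17.1 (exact permutation p = 0.01, adjusted p = 0.32) and Zic1 by -12.1 (exact permutation p = 0.045, adjusted p = 0.426), the latter -2.07 relative to covered Mb (exact permutation p = 0.71).

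Ucp1 itself had no result at the promoter, in the gene or in the flanks. Its H3K27me3 promoter coverage was 44.3%, 41.1% and 49.1% in C, 11.8% and 31.9% in H, 27.3%, 21.04% and 29.8% in CC_s and 0%, 0% and 49.7% in HC. In the longer cohort it was 47.3% and 49.7% in CC_l, 100% and 0% in HH, 27.6% and 22.7% in CCC and 68.1%, 92.6% and 82.7% in HHC. HHC was above CCC without overlap, HC overlapped CC_s, and HH replicates were at both ends of the range. The lone H3K4me3 peak at Ucp1 was in 1 HH library, over 23.7% of the window.

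Cidea H3K27me3 differed widely between libraries. Its promoter was covered 0% in every C and CC_s library, 12.6% and 58.6% in H, and 41.1%, 0% and 43.6% in HC. In the 25-week cohort it was 100% and 30.3% in CC_l, 100% and 65.0% in HH, 29.8% and 0% in CCC and 92.7%, 19.02% and 0% in HHC, which overlap. Dio2 H3K27me3 was seen in 1 HH and 1 HHC library, over 43.6% and 29.2% of the window, and in no control.

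The number of the 10 genes with a promoter peak also differed between the cohorts. The median was 4 in the 12-week and 8 in the 25-week libraries for H3K4me3, 2 and 5.5 for H3K27ac, 2 and 6 for H3K4me1, and 4 and 5 for H3K27me3. H3K4me1 at Dio2 was in 0 of 12 libraries of the 12-week cohort and in 9 of 10 of the 25-week cohort. Libraries of the 25-week cohort covered 50.8 to 100 Mb with H3K4me3 against 11.04 to 53.4 Mb, and 58.3 to 133 Mb with H3K4me1 against 16.2 to 61.1 Mb, so age, diet duration and library cannot be told apart.

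Genes that feed this programme were read from lists. Of 10 transcription regulators of brown and beige fat, 5 had lower H3K27ac promoter coverage in obesity at an unadjusted p under 0.05 and 0 had higher, where 9.55% of all genes were under that threshold for this mark. They were led by Irf4, a fasting-responsive factor, at a mean of 0% in H against 39.7% in C and 25.5% in HH against 54.8% in CC_l (difference -34.5, exact permutation p = 0.01, adjusted p = 0.379), and by Ebf2, a selector of brown precursors (-51.6, exact permutation p = 0.015, adjusted p = 0.392). Ppara differed by -26.5, and Esrra (-17.2) and Pparg (-28.9), which are named here after their values were seen, completed the 5. The list's median difference was -15.5 against 0 over all genes. All genes here, and for the lists below, include 33.9% with no H3K27ac promoter peak in any library, whose coverage cannot differ. Of the 10 regulators, 7 had such a peak in at least 50% of libraries, as had 42.7% of all genes. Values relative to covered Mb were not computed for genes of these lists. Ebf2 also had more H3K27me3 after WL, at 33.02% in HC against 15.7% in CC_s and 81.9% in HHC against 0% in CCC (49.6, exact permutation p = 0.03, adjusted p = 0.999).

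Of 6 genes of adrenergic input, 4 had lower H3K27ac in obesity and 0 higher (9.55% of all genes under the threshold), with a median difference of -28.1. All 6 had an H3K27ac promoter peak in at least 50% of libraries. Adrb3, the main adrenergic receptor of rodent fat, was at a mean of 13.7% in H against 99.1% in C, and 65.4% in HH against 100% in CC_l (-60.0, exact permutation p = 0.035, adjusted p = 0.45). Prkaca, the catalytic subunit of protein kinase A, differed by -53.1 (exact permutation p = 0.01, adjusted p = 0.379), Creb1 by -20.8 and Adrb1 by -35.5. Adrb1 had H3K27me3 at 36.6% in H against 0% in C and 65.3% in HH against 30.4% in CC_l (35.8, exact permutation p = 0.0167, adjusted p = 1).

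Of 8 genes of mitochondrial fatty acid oxidation, 3 had lower H3K27ac in obesity, Cpt2 (-24.0), Acadm (-29.9) and Etfdh (-14.2), and 0 higher (9.55% of all genes under the threshold), with a median of -13.8. The 10 adipocyte markers behaved alike, with 4 lower (Lipe, Acvr1c, Retn and Lep) and 0 higher and a median of -32.1, so lower H3K27ac in obese libraries was not limited to heat-producing genes, and 2010 of the 2086 genes under the threshold for this mark, of 21851 tested, were lower. No gene of the 5 repressors of the brown programme was under the threshold for any mark, and Hoxc10 was lost for H3K4me3 in H against C (1.71% of all genes called).

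Among 10 selective markers of brown and beige fat, 1 was under the threshold for H3K27me3 after WL, where 3.87% of all genes were. This was Kcnk3, a potassium channel gene, at 25.3% in HC against 0% in CC_s and 68.1% in HHC against 17.1% in CCC (38.1, exact permutation p = 0.005, adjusted p = 0.854). H3K4me3 was higher after WL at Epsti1 alone (23.3, exact permutation p = 0.02, 3.13% of all genes under the threshold). In obesity H3K4me3 was lower at Mpzl2 alone (-23.4, exact permutation p = 0.0333, 2.55% of all genes). Among 10 genes of heat production without UCP1, Pm20d1 makes N-acyl amino acids that uncouple mitochondria. It gained H3K27me3 by the presence call in HC and in HHC (0.993% and 2.1% of all genes called). Coverage was 25.8% in HC and 64.4% in HHC against 0% in both chow groups (45.1, exact permutation p = 0.01, adjusted p = 0.883). Ryr2, a calcium channel gene, was lower for H3K27me3 in obesity (-47.2, exact permutation p = 0.0333, 2.65% of all genes under the threshold). After WL its difference was -16.8 (exact permutation p = 0.04, 3.87% of all genes).

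Of 6 secreted factors of brown fat, 1 was under the threshold for H3K27me3 after WL (3.87% of all genes). Bmp7 had this mark at 18.0% in HC against 90.8% in CC_s and 68.8% in HHC against 96.6% in CCC (-50.3, exact permutation p = 0.015, adjusted p = 0.883). Vegfa had less H3K27ac in obesity (-52.4, exact permutation p = 0.015, adjusted p = 0.392, 9.55% of all genes under the threshold). Nrg4 had more H3K27me3 in obesity (16.2, exact permutation p = 0.0333, 2.65% of all genes). Of the 10 relatives, Zic4 alone was under the threshold, with H3K27me3 lower after WL (3.87% of all genes). Its difference was -27.4 (exact permutation p = 0.015, adjusted p = 0.883), in the domain it shares with Zic1. Skeletal muscle markers were read because several of the 10 genes are muscle genes too: 14.3% to 28.6% of the 7 had an H3K4me3 peak in a library, and Ckm, Myh4, Tnnt3, Myog and Myod1 had none in any. Of the 5 progenitor markers, 0% to 80% had H3K4me3 in H, against 60% to 80% in C. Of the 5 mesothelial markers, 0% had it in H and 20% to 60% in C.

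The promoters most like each gene were found from the share of libraries with a peak in the 32 groups of mark and diet, by the mean absolute difference. Closest to Ucp1 were Olfr462, Sycp2l and Bmp8b (2.60 to 3.13 percentage points), and closest to Zic1 were Fezf2, Ovol1 and Lhfpl3 (2.60 to 4.17). Prdm16 was nearest to Dpysl5, Gm13889 and Tox2 (3.13 to 5.21), Ppargc1a to Dusp10, Larp1b and Trim14 (4.17 each) and Cox7a1 to Mpv17, Stx12 and Pcnt (3.13 to 4.17). Cox8b was nearest to Lag3, Ugt1a6b and Dpep2 (5.73 to 6.77), Elovl3 to Foxl2, Hecw2 and Hrh3 (6.77 to 7.81), Cpt1b to Vwa3a, Igsf23 and Smim24 (8.33 to 9.90) and Dio2 to Cmpk2, Ttc39a and 1700067K01Rik (8.85 to 9.90). Cidea had the most distant neighbours, Gli2, Bmp2 and Fst, at 11.5 to 13.02.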

How the data were processed

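Biotin-tagged adipocyte nuclei gave 84 peak lists by CUT&Tag, a method that tags DNA beside an antibody-bound histone mark. According to the methods of the study and the submitters' processing notes, the authors trimmed reads (Trim Galore 0.6.6), aligned them to GRCm38 (Bowtie2 2.4.4), and called peaks in each library on its own with SEACR 1.3, stringent mode, threshold 0.01. SAMtools 1.13 and bedtools 2.30 are also named. The deposited signal values are whole-number coverage without scaling between libraries, so positions and widths were used and signal only ranked peaks within a library. The study states only a minimum of reads per sample, so the depth of each library is unknown and the number of libraries limits the precision. The study calls the libraries of a group biological replicates and took several assays from the same fat depot.

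Start sites (41438, of 21851 genes) came from the GENCODE basic annotation of GRCm38. At least 1 bp of a peak marked a window. A 2-sided exact permutation test compared the percent of a window covered, with labels permuted within cohorts. The threshold was 0.05, and Benjamini-Hochberg adjustment ran over all genes of a mark. The test was run on simulated data first. The study's count model needs read counts and was not run. Alternatives were windows of 500 and 1000 bp, the 5′ end of the gene only, peak width, 200 bp of coverage, equal peak numbers, the strongest peaks without the weakest 25%, the treatment field, a replicate block, each library left out, and coverage relative to covered Mb, the last added after seeing the data. Python 3.11.15 with numpy 2.4.6 and matplotlib 3.10.9 was used.

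Members, gene lists and tests were chosen with earlier results of these data known. Named were all members, their relatives, members' tests with an unadjusted p under 0.05, at most 4 genes of each further list in order of p, genes whose windows or flanks a described peak shares, and the 3 promoters most like each member.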

Additional observations from a re-analysis of the deposited data

Results flagged for a closer look

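In the obese comparison, H3K4me3 at the promoters of 2 genes was lower than control in every library of the 12-week cohort and higher in every library of the 25-week cohort, though neither passed the adjusted test of the difference. For Prdm16, coverage was 0% in H against 32.04% in C (difference -32.04 percentage points) and 95.8% in HH against 29.4% in CC_l (66.4), so that the difference in the 25-week cohort exceeded that in the 12-week cohort by 98.5 percentage points (exact permutation test of the difference between cohorts, p = 0.0167, adjusted p = 0.173). For Cox7a1, coverage was 17.2% in H against 29.3% in C (-12.1) and 48.8% in HH against 26.3% in CC_l (22.5), a difference between cohorts of 34.6 (exact permutation p = 0.0167, adjusted p = 0.173). In both genes the groups did not overlap within either cohort, and 0.0167 is the smallest p the design allows. How many of all genes differ in opposite directions in this way was not counted. Of the 10 genes, 4 had an unadjusted p under 0.05 in this test, where 16.4% of all genes did, and Ppargc1a and Cox8b were the others (exact permutation p = 0.0333, adjusted p = 0.203 each). With groups of the 25-week cohort taken from the treatment field, the differences in that cohort were 2.56 for Prdm16 (57.4% against 54.8%) and 14.5 for Cox7a1 (43.5% against 28.97%), and the groups overlapped. H3K4me3 peaks covered 11.04 to 30.2 Mb in H, 41.03 to 53.4 Mb in C, 78.9 to 82.6 Mb in HH and 50.8 to 75.9 Mb in CC_l, and the part of this in either value was not tested.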

How the results depend on the processing

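Peak lists without read depth, groups of 2 or 3 libraries and library sizes that moved with diet limit all of these results. The counts below are of gene and mark combinations with an unadjusted p under 0.05, and of promoters called gained or lost. With windows of 500 bp, promoters gave 1 result in obesity (main 3) and 1 in WL (main 2), and there were 4 calls in H against C (main 7), 1 in HC against CC_s (main 0) and 1 in HHC against CCC (main 0). With 1000 bp there were 4 calls in H against C, 1 in HC against CC_s and 2 in HH against CC_l (main 1). Peak width in place of coverage gave 1 result in WL. Equal peak numbers gave 5 results at promoters in obesity, 2 in gene bodies (main 1) and 2 in flanks (main 4) in WL, and 3 calls in H against C, 2 in HH against CC_l and 2 in HHC against CCC. The stricter list gave 3 results in flanks in obesity (main 5), 4 calls in H against C and 0 in HH against CC_l, where the treatment field also gave 0. Relative to covered Mb, flanks gave 2 results in obesity. There the differences of Zic1 H3K27me3 in obesity turned to 26.5 in the gene body (exact permutation p = 0.15) and 4.24 in the flanks (exact permutation p = 0.45), and that of Cidea H3K27ac in the flanks to 0.53 (exact permutation p = 0.87). The cause of these changes was not tested.

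With the replicate block all 6 counts of results were 0, since the smallest p it allows is 0.0625 or higher. Replicate numbers did not pair the libraries: correlations of deviations ran from -0.44 to 0.31 over 36 pairs, and 9 exceeded 0.1.

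With 1 library left out, results ranged in obesity from 1 (without H replicate 1 or 2) to 5 (without HH replicate 2) at promoters, 2 (without C replicate 1 or 2) to 4 in gene bodies and 2 (without C replicate 2 or CC_l replicate 1) to 6 in flanks. In WL they ranged from 1 (without CCC replicate 3) to 3 at promoters, 1 to 2 (without HHC replicate 1) in gene bodies and 2 (without HC replicate 3, CCC replicate 1 or 3, or HHC replicate 1 or 3) to 5 in flanks. Calls were 7 throughout in H against C, 0 to 3 in HC against CC_s (3 without HC replicate 2), 1 to 4 in HH against CC_l (4 without HH replicate 3) and 0 to 3 in HHC against CCC (3 without CCC replicate 1). Of the 19 single differences, 8 kept an unadjusted p under 0.05 in all fits that left out a library of their mark (11, or 9 for H3K27me3 in obesity), among them H3K27me3 at Prdm16 in WL in promoter, gene body and flanks, and the other 11 lost it in 1 to 9 of these fits with the same direction. Over all single differences and settings, 208 of the values stayed on their side of the threshold, 103 lost it and 3 turned direction.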

Other observations

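Retn, an adipocyte hormone gene and 1 of the adipocyte markers, had an H3K27me3 peak at its promoter in every WL library and in no control library of either cohort. Of all genes, 0.993% were called gained or lost for this mark in HC against CC_s and 2.1% in HHC against CCC. Mean coverage of Retn was 16.7% in HC and 52.3% in HHC against 0% in CC_s and CCC (difference 34.5 percentage points, exact permutation p = 0.005, adjusted p = 0.854, 3.87% of all genes under the threshold). Of the 7 skeletal muscle markers, 1 had lower and 1 higher H3K27me3 after WL at an unadjusted p under 0.05 (3.87% of all genes). Myod1, a muscle regulator not marked by H3K4me3 in any library, was covered by H3K27me3 over 43.2% in HC against 95.0% in CC_s and 85.9% in HHC against 98.7% in CCC (-32.3, exact permutation p = 0.01, adjusted p = 0.883). Acta1 went the other way, with a difference of 47.8 (exact permutation p = 0.015, adjusted p = 0.883). Its mean coverage was 36.02% in HC against 10.2% in CC_s and 91.1% in HHC against 21.3% in CCC.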
